A study of Caenorhabditis elegans with 4 samples.

Results

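The broadest MEP-1 regions of the Caenorhabditis elegans embryo were taken as the rows of the authors' combined peak list that are wider than 1000 bp, with the width counted from start to end and both ends included. They were chosen by width alone, and the rule selected 208 of the 11448 listed peaks, called broad peaks here. The back-calculated number of regions that the caller had tested was 15494, and 73.9% of these were listed. All broad peaks are listed by construction, so that share is given as background only. They were set against the 6516 peaks of 200 to 1000 bp, called medium peaks, and the remaining 4724 peaks were narrower than 200 bp.

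The study mapped where MEP-1 sits on the genome in whole embryos by chromatin immunoprecipitation and sequencing (ChIP-seq). It comprised 2 libraries precipitated with an affinity-purified antibody against GFP and 2 libraries of input DNA. All 4 came from hermaphrodite strain OP70, grown at 20 °C and crosslinked with 2% formaldehyde. The strain carries the allele unc119(ed3) and the array wgIs70, made by bombardment and holding mep-1::TY1 EGFP FLAG C with an unc119 gene. Binding was therefore read from a tagged MEP-1 made from a transgene, and no library from an untagged strain was analysed here. The copy number of the transgene and the levels of the endogenous protein were not given in the labels. Whole embryos hold many cell types, and the list does not tell them apart.

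The zinc-finger protein MEP-1 works with LET-418, a worm homologue of the nucleosome remodeller Mi-2, and with the histone deacetylase HDA-1. Together they form a complex of the worm soma that represses genes normally used by germ cells. On the autosomes of this worm, genes crowd the central part, where recombination is rare, while repeats gather in the arms, and the genes for ribosomal RNA lie in an array at the right end of chromosome I. PeakSeq, the caller of this list, first finds stretches in which ChIP reads accumulate and then weighs each stretch against a scaled control. The width of a peak is thus the length of such a stretch, and it does not tell 1 long bound domain from several bound sites close together.

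Only 1 list exists for all libraries, with no value per library, so replicates could not be compared and library depth is unknown. Peaks of 1 list are not replicates, and no test was made on them. The intervals below are exact (Clopper-Pearson) 95% intervals and cover counting error only. Width chose the broad peaks, and q-values and reads come from the same comparison of ChIP with control. Those values are descriptions. Position along the chromosome and distance to other peaks were not used by the rule. Distance is still not independent of width, since both depend on where the caller ends a peak. Listed peaks were never less than 200 bp apart, and whether nearer stretches were joined into 1 wider peak was not tested.

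Broad peaks were few but took a sizeable part of the listed sequence. They covered 302.911 kb, which was 9.22% of all listed bases, and held 9.08% of the ChIP reads in listed peaks. Without the last peak of chromosome I, described below, the share of reads was 8.07%. Widths ran from 1001 to 3629 bp with a median of 1258 bp (quartiles 1082 and 1647.5 bp). Of the 208, 138 were 1001 to 1500 bp wide and 70 were wider.

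The limit of 1000 bp cuts through a continuous run of widths. The 3 peaks just above it were 1001 bp (X, 9957963 to 9958963, with 349 ChIP and 55 control reads), 1002 bp (IV, 11593341 to 11594342, with 345 and 81) and 1004 bp wide (X, 10677529 to 10678532, with 188 and 58). The 3 just below were 999 bp (III, 4281844 to 4282842, with 355 ChIP and 34 control reads), 994 bp (II, 2987313 to 2988306, with 152 and 23) and 991 bp wide (I, 9382482 to 9383472, with 183 and 47). Ratios of ChIP to scaled control were 6.35, 4.26 and 3.24 above the limit and 10.4, 6.61 and 3.89 below it, in the same order. The sets of 3 overlapped in reads and in ratio.

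Reads were back-calculated from the q-values, and all 208 broad peaks matched exactly 1 pair of whole ChIP and scaled control reads. A broad peak held a median of 266.5 ChIP reads (range 117 to 8899) and 61 scaled control reads (range 24 to 6053). Medium peaks held medians of 76 and 20. The ratio of ChIP to control had a median of 4.44 in broad peaks (quartiles 3.37 and 5.69, range 1.47 to 10.7) and 4.0 in medium peaks. A peak with fewer reads needs a higher ratio to pass the limit on q, so ratios of wider and narrower peaks are not like for like. Per kb of peak, broad peaks held a median of 195 ChIP reads against 219 in medium peaks, and 47.2 scaled control reads against 55. The higher numbers of reads in broad peaks thus went with their length, while reads per kb were no higher than in medium peaks. Reads per kb themselves depend on width, however. On II, listed peaks of only 5 bp (6842073 to 6842077) and 8 bp (6847230 to 6847237) held 24 and 25 ChIP reads. Among medium peaks, the median fell from 220 ChIP reads per kb at 200 to 400 bp to 202 at 601 to 1000 bp. The lower values per kb of broad peaks therefore cannot be read as weaker signal.

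The scaled control differs between chromosomes, so the same values were set side by side within each. The median ratio was 4.09 in broad and 3.79 in medium peaks on I, 6.37 and 5.44 on III, 3.88 and 3.01 on IV, 4.52 and 4.0 on V, and 3.49 and 3.22 on X. On II the order was the other way, at 4.62 and 4.93. ChIP reads per kb had the lower median in broad peaks on all 6 chromosomes, and control reads per kb did too. Both values depend on peak width as described above, so this order cannot be read as a trait of broad peaks. The differences in ratio were small beside the spread between broad peaks of 1 chromosome. There, the quartiles of the ratio were 3.30 and 4.92 on I and 4.51 and 7.72 on III.

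**Figure D1:**
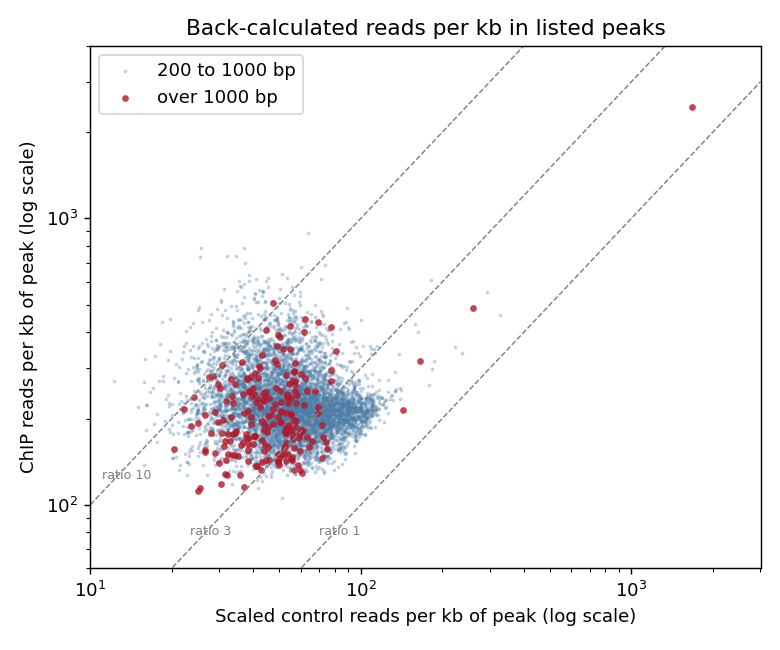
Each point is 1 peak, with scaled control reads per kb of peak on the horizontal axis and ChIP reads per kb on the vertical axis, both on log scales and both back-calculated from the q-values. Dashed lines mark ChIP to control ratios of 1, 3 and 10. Except for the last peak of chromosome I at the upper right, broad peaks (red) lie within the range of medium peaks (blue) on both axes.

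In the list ordered by q-value, broad peaks crowded the top. They made up all of the best 10, 31 of the best 50, 47 of the best 100, 114 of the best 500 and 150 of the best 1000, and all 208 were among the best 5724. The median −log10 q was 29.3 (quartiles 18.8 and 44.9, range 6.05 to 155.8), against 7.81 in medium peaks. At a given ratio a longer stretch holds more reads, and more reads give a lower q. Among the broad peaks themselves, the rank correlation (Spearman's rho, n = 208 peaks of the same pooled libraries) of width was 0.47 with −log10 q, 0.10 with the ratio, 0.10 with ChIP reads per kb and -0.095 with control reads per kb. Width among broad peaks therefore went with q and hardly with enrichment.

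The 10 widest peaks lay on all 6 chromosomes, with 4 on II and 2 on I. The widest of all, on I from 15064024 to 15067652, was 3629 bp wide and held 8899 ChIP and 6053 control reads, a ratio of 1.47. It was the last listed peak of its chromosome, its nearest listed neighbour lay 29811 bp away, and it held 1668 control reads per kb. Among the other 207 broad peaks, no peak held more than 1002 ChIP reads, 335 control reads or 259.5 control reads per kb. Whether it lies in the ribosomal RNA array could not be looked up, since no annotation of build WS180 was used here.

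The other 9 held at most 237 control reads. The widest on II, from 6826660 to 6830197, was 3538 bp wide with 617 ChIP and 144 control reads (ratio 4.28). The widest on IV, from 10867702 to 10870851, was 3150 bp wide with 495 and 237 reads, and its ratio of 2.09 placed it only at rank 931 by q. This peak was wide and weakly enriched, unlike the next ones on II. There, the peak from 9059562 to 9062621 was 3060 bp wide with 783 and 122 reads (ratio 6.42). Another on II, from 14249097 to 14251971, was 2875 bp wide with 810 and 82 reads (ratio 9.88). The widest on III, from 9702722 to 9705546, was 2825 bp wide with 498 and 106 reads (ratio 4.70). That ratio was near the median of the broad peaks, and the ratios on V and I were near their upper quartile. The widest on V, from 6226461 to 6229266, was 2806 bp wide with 641 and 115 reads (ratio 5.57), and the second on I, from 1834888 to 1837492, was 2605 bp wide with 639 and 113 reads (ratio 5.65). The widest on X, from 6741638 to 6744347, was 2710 bp wide with 486 and 142 reads (ratio 3.42). The last of the 10, on II from 6842428 to 6845011, was 2584 bp wide with 400 and 99 reads (ratio 4.04), and it belonged to the same group of broad peaks as the widest on II.

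The most enriched broad peaks were not the widest. The highest ratio, 10.7, belonged to a peak of 1079 bp on X from 10568124 to 10569202, with 548 ChIP and 51 control reads. Chromosome III held the next pair, 7098 bp apart. They ran from 13070168 to 13072096 (1929 bp, 540 and 53 reads, ratio 10.2) and from 13060912 to 13063069 (2158 bp, 664 and 66 reads, ratio 10.1). The peak of 2875 bp on II described above came next, and a peak of 1031 bp on III from 6551137 to 6552167 was the last of the 5 with 245 and 25 reads (ratio 9.80). Of these 5, only that peak on II was also among the 10 widest.

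At the low end, 4 of the 5 lowest ratios went with many control reads. After the last peak of I, the lowest ratio was 1.5, in the last listed peak of III from 13778916 to 13781250 (2335 bp, 502 ChIP and 335 control reads, 143 control reads per kb). A peak of 1048 bp on V from 264935 to 265982 followed with 508 and 272 reads (ratio 1.87, 259.5 control reads per kb). Another on V, from 5284023 to 5285751, was 1729 bp wide with 549 and 285 reads (ratio 1.93, 165 control reads per kb). These 4 were the only broad peaks above 100 control reads per kb, a share of 1.92%, against 216 medium peaks (3.31%). Such shares depend on width, since median control reads per kb were 58.4 at 200 to 400 bp and 46.3 over 1500 bp. The other of the 5 lowest ratios, 2.03, was in a peak of 1017 bp on X from 10843673 to 10844689, with 148 and 73 reads and no such excess of control. The part that sequence copies or mapping play in these control levels was not tested.

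All 6 chromosomes carried broad peaks. X held 49, or 23.6% of them, against 19.2% of the medium peaks. IV and V held 35 each, III 33, and I and II 28 each. Per Mb up to the last listed peak, this was 2.77 on X, 2.39 on III, 2.00 on IV, 1.86 on I, 1.83 on II and 1.67 on V, with 2.08 for the genome. Median widths ran from 1180 bp on V and 1185 bp on IV to 1360 bp on II and 1380.5 bp on I.

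The share of peaks that were broad was set side by side between chromosomes. Among peaks of at least 200 bp the share was 3.09% over the genome (208 of 6724, interval 2.69 to 3.54). It was highest on X, at 3.77% (49 of 1299, interval 2.80 to 4.96), and next on IV, at 3.48% (35 of 1005, interval 2.44 to 4.81). It was 3.16% on V (35 of 1109, interval 2.21 to 4.36), 3.10% on III (33 of 1065, interval 2.14 to 4.32) and 2.55% on II (28 of 1098, interval 1.70 to 3.66). It was lowest on I, at 2.44% (28 of 1148, interval 1.63 to 3.51). At 1000 bp each interval overlapped every other, which does not by itself show that the shares are equal. With a limit of 800 bp the intervals of X (7.85%, 6.45 to 9.45) and II (4.92%, 3.72 to 6.37) did not overlap, so the overlap depends on the limit.

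**Figure D2:**
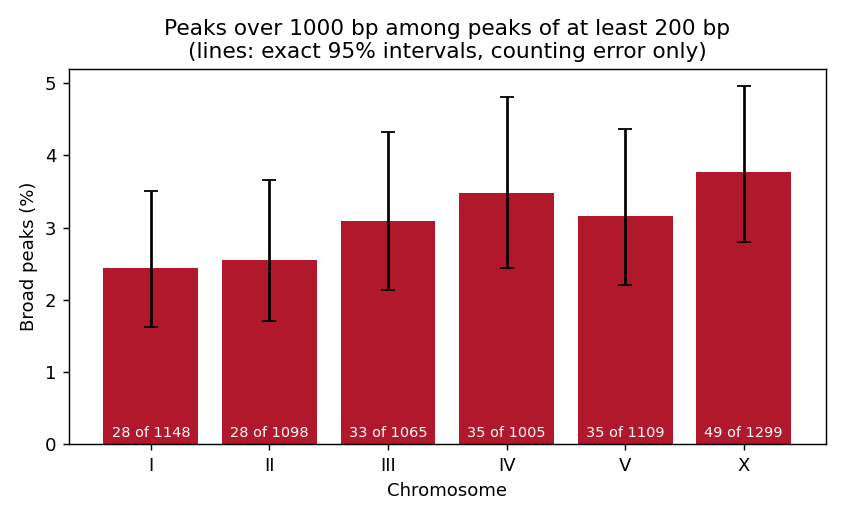
Bars give, for each chromosome on the horizontal axis, the percent of listed peaks of at least 200 bp that are wider than 1000 bp, and lines give exact 95% intervals for counting error only. X stands highest at 3.77% and I lowest at 2.44%, and the intervals of all 6 chromosomes overlap.

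Broad peaks lay in chromosome centres about as often as medium peaks. The centre was the middle 0.5 of each chromosome up to its last peak, and it held 129 of 208 broad peaks, or 62.0% (interval 55.0 to 68.6). Of the medium peaks it held 58.5% (interval 57.3 to 59.7), and the intervals overlapped. Chromosomes went different ways. The centre held 75% of the broad and 57.8% of the medium peaks on I, 64.3% and 60.1% on II, and 65.3% and 52.9% on X. The broad share was the lower one on III (57.6% and 60.2%), on IV (48.6% and 56.1%) and on V (62.9% and 64.8%). The pooled difference of 3.52 percentage points fell to 1.35 without chromosome I and to 1.17 without X, so these chromosomes carried most of it.

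Neither arm set broad peaks apart from medium ones. The left arms, the first 0.25 of each chromosome, held 33 broad peaks, 15.9% (interval 11.2 to 21.6) against 20.3% of the medium peaks. The right arms, the last 0.25, held 46, or 22.1% (interval 16.7 to 28.4) against 21.2%. The intervals of the left and right arms overlapped. In bins of 0.1 of the chromosome, the first bin held 10 broad peaks (4.81%, interval 2.33 to 8.66) against 8.27% of the medium peaks. The last bin held 23 (11.1%, interval 7.14 to 16.1) against 8.44%. Of those 23, 7 lay on III, 4 on II, 4 on V, 3 on IV, 3 on X and 2 on I. The broad share was the higher one on 4 of 6 chromosomes in the last bin and on 1 of 6 in the first. Further in, the bin from 0.6 to 0.7 held 15.9% of the broad and 11.7% of the medium peaks, and the bin from 0.3 to 0.4 held 7.69% and 11.0%. In all 10 bins the interval of the broad peaks took in the share of the medium peaks, so at this number of peaks no bin set them apart.

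**Figure D3:**
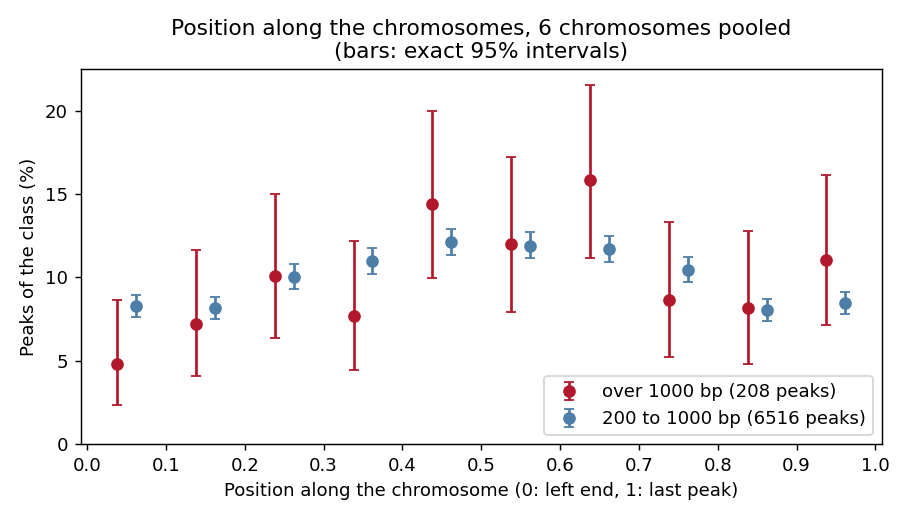
The horizontal axis gives the position along the chromosome, from 0 at the left end to 1 at the last peak, in 10 bins over all 6 chromosomes, and the vertical axis the percent of broad (red) and medium (blue) peaks in each bin, with exact 95% intervals. Broad peaks run from 4.81% in the first bin to 15.9% in the bin from 0.6 to 0.7, and in every bin their interval takes in the share of the medium peaks.

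The clearest difference in placement was in what lay right beside a broad peak. Another listed peak lay within 2000 bp, edge to edge, of 164 broad peaks, or 78.8% (interval 72.7 to 84.2). The share was 56.7% in medium peaks (interval 55.4 to 57.9), and these intervals did not overlap. Neighbouring peaks count each other, however, so both intervals are too narrow. The median gap to the nearest listed peak was 604 bp (quartiles 319 and 1583 bp) for broad peaks and 1564.5 bp (quartiles 641 and 4053 bp) for medium peaks. Within 500 bp the shares were 43.8% and 18.9%, and within 10000 bp they were 97.1% and 92.3%. Neighbours within 2000 bp on both sides were found for 81 broad peaks, or 38.9%, against 15.9% of the medium peaks. Widths and gaps both depend on where the caller ends a peak, so these differences are not separate from the choice by width.

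The broad share was the higher one on each of the 6 chromosomes, but on V and IV by less than counting error. Shares with a neighbour within 2000 bp were 92.9% of the broad and 62.3% of the medium peaks on II, 87.9% and 59.9% on III, 85.7% and 52.8% on X, and 78.6% and 53.8% on I. The smallest differences were on V, at 68.6% (interval 50.7 to 83.1) and 61.5%, and on IV, at 60% (interval 42.1 to 76.1) and 50%. In centres the shares were 82.2% (interval 74.5 to 88.3) and 58.7%, and in arms 73.4% (interval 62.3 to 82.7) and 53.8%. Distance from edge to edge does not count the peak's own width. Measured between midpoints, which does, the difference was 13.0 percentage points in place of 22.2.

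The excess of neighbours faded within 10 to 20 kb. At gaps of 0.2 to 1 kb, broad peaks had 0.598 listed peaks per kb of flank and medium peaks 0.292, a ratio of 2.05. The ratio was 1.64 at 1 to 2 kb (0.370 and 0.226), 1.42 at 2 to 5 kb (0.257 and 0.181) and 1.29 at 5 to 10 kb (0.191 and 0.148). At 10 to 20 kb it was 1.02 (0.133 and 0.130), and at 20 to 50 kb 0.897 (0.110 and 0.122). In the 3 shells at 0.2 to 1, 2 to 5 and 5 to 10 kb, broad peaks had the denser flank on all 6 chromosomes, and at 1 to 2 kb on 5 of 6. At 10 to 20 kb this was so on 4 of 6 chromosomes and at 20 to 50 kb on 2 of 6. With any 1 chromosome left out, the ratio in the first shell stayed between 1.94 and 2.24. Over 50 kb on each side, a broad peak had a median of 14 other listed peaks and a medium peak 13.

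**Figure D4:**
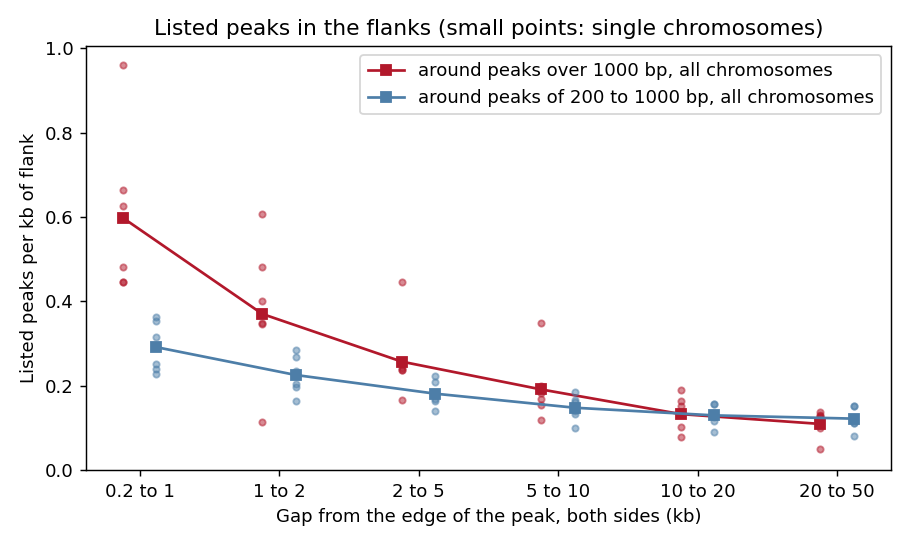
The horizontal axis gives the gap from the edge of a peak in kb, in 6 shells, and the vertical axis the number of other listed peaks per kb of flank, for broad (red) and medium (blue) peaks. The broad peaks' flanks start at 0.598 per kb next to the peak, against 0.292, and the curves meet at 10 to 20 kb.

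Neighbours of every width took part. In the first shell, from 0.2 to 1 kb, broad peaks had 199 neighbours, of which 61 were under 200 bp, 122 of 200 to 1000 bp and 16 broad. Per kb of flank these were 1.66, 2.16 and 4.11 times as many as medium peaks had. The last of these rests on 8 pairs of broad peaks, each counted from both sides. The nearest neighbour of a broad peak had a median width of 296.5 bp, against 245 bp for a medium peak. It was under 200 bp wide for 34.6% of the broad and 39.8% of the medium peaks. It was itself broad for 10 broad peaks, or 4.81%, against 2.12% of the medium peaks.

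Broad peaks also lay near one another. A second broad peak lay within 20 kb of 49 broad peaks, or 23.6% (interval 18.0 to 29.9), whereas a broad peak lay within 20 kb of 11.9% of the medium peaks (interval 11.1 to 12.7). Neighbouring broad peaks count each other, so the 49 formed 23 groups and the interval for broad peaks is too narrow. Several medium peaks can lie near the same broad peak, so the interval for medium peaks is too narrow as well. The median gap to the nearest broad peak was 117436 bp from a broad peak and 169227 bp from a medium one. The order was the other way on X (159641 and 111505 bp) and on I (195556 and 181754 bp). Within 2 kb the shares were 11.1% and 3.22%, within 5 kb 14.9% and 5.56%, and within 10 kb 21.6% and 8.12%. Between 10 and 20 kb the nearest broad peak was found for only 4 more broad peaks (1.92%), against 3.76% of the medium peaks, so the excess within 20 kb came from gaps up to 10 kb.

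The share within 20 kb was the higher one in broad peaks on 5 of 6 chromosomes. On I, II and III the intervals of broad and medium peaks did not overlap. Broad peaks of a group count each other, however, and several medium peaks can share 1 broad peak, so the intervals of both are too narrow. The 8 such peaks on I formed 4 groups, the 12 on II formed 5 and the 10 on III formed 5. A broad peak lay within 20 kb of 42.9% of the broad (interval 24.5 to 62.8) and 11.1% of the medium peaks on II. The shares were 30.3% (interval 15.6 to 48.7) and 11.7% on III, and 28.6% (interval 13.2 to 48.7) and 9.11% on I. On X the shares were 22.4% (interval 11.8 to 36.6) and 15%, and on IV 17.1% (interval 6.56 to 33.6) and 10.7%. Chromosome V went the other way, at 5.71% (interval 0.70 to 19.2) and 13.1%, where 1 pair of broad peaks made up the first share. The pooled difference was 11.7 percentage points, 8.53 without II and 15.5 without V. It was 13.8 in centres and 7.85 in arms, and in arms the intervals of broad peaks (10.04 to 27.9) and medium peaks (8.78 to 11.1) overlapped.

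Joined by gaps of at most 20 kb, the broad peaks formed 23 groups with 49 members, and the other 159 stood alone. There were 21 pairs, 1 group of 3 and 1 of 4. II, III and X held 5 groups each, I held 4, IV 3 and V 1, and 16 groups with 35 members lay in chromosome centres. In 9 of the pairs the gap was at most 2000 bp. No other listed peak lay inside 7 of the groups, so the rest were broad peaks with narrower ones between them.

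The group of 4 lay on II from 6826660 to 6845011, a stretch of 18352 bp of which broad peaks covered 47.4%. Its members were the widest peak on II and the narrowest of the 10 widest, both described above, with 2 smaller ones between them. These ran from 6830912 to 6832114 (1203 bp, 252 ChIP and 64 control reads, ratio 3.94) and from 6833553 to 6834931 (1379 bp, 235 and 53 reads, ratio 4.43). All 4 ratios, from 3.94 to 4.43, lay just under the median of the broad peaks. Another 10 listed peaks lay between the members. The group sat in the longest run of the list, in which 24 peaks followed each other with gaps of at most 2000 bp from 6821094 to 6848266, and 49.3% of these 27173 bp were listed.

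The group of 3 lay on X from 11024025 to 11034132, over 10108 bp, with no other listed peak inside. Its members ran from 11024025 to 11025126 (1102 bp, 201 ChIP and 61 control reads, ratio 3.30), from 11030841 to 11032214 (1374 bp, 458 and 59 reads, ratio 7.76) and from 11032869 to 11034132 (1264 bp, 173 and 52 reads, ratio 3.33). The middle member had the highest ratio of the 3, and the ratios were less even than in the group on II.

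In the 2 closest pairs the gap was barely longer than the shortest in the list. On III, peaks from 12613234 to 12614358 (1125 bp, 203 ChIP and 39 control reads, ratio 5.21) and from 12614580 to 12616387 (1808 bp, 368 and 82 reads, ratio 4.49) were 221 bp apart. On II, peaks from 11633684 to 11636247 (2564 bp, 707 and 85 reads, ratio 8.32) and from 11636526 to 11637666 (1141 bp, 159 and 34 reads, ratio 4.68) were 278 bp apart. No listed peaks were closer than 200 bp to each other.

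The 5 broad peaks farthest from any other broad peak were 1056 to 1365 bp wide. Of these 5, 4 lay in chromosome arms, as did 79 of all 208 broad peaks. The farthest, on II from 1325137 to 1326196 (1060 bp, 121 and 27 reads, ratio 4.48), had no other broad peak within 3248 kb, and it was the only one in the left arm of II. On IV, the peak from 561776 to 562891 (1116 bp, 192 and 81 reads, ratio 2.37) stood 2487 kb from the next. The one on III from 349356 to 350438 (1083 bp, 299 and 41 reads, ratio 7.29) stood 1570 kb away. Isolation from broad peaks was not isolation from all peaks, since the one on III lay in a run of 10 listed peaks and the one on II in a run of 7. On I, the peak from 12575250 to 12576614 (1365 bp, 203 and 71 reads, ratio 2.86) stood 1371 kb away. On V, the peak from 12065170 to 12066225 (1056 bp, 181 and 40 reads, ratio 4.53) stood 1019.5 kb away.

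Neighbours were also more frequent in each wider class of peaks, below 1000 bp as well as above. In peaks of 200 to 400 bp (n = 4215), 401 to 600 bp (n = 1567), 601 to 1000 bp (n = 734), 1001 to 1500 bp (n = 138) and over 1500 bp (n = 70), the share with a listed neighbour within 2000 bp was 53.7%, 59.7%, 67.3%, 78.3% and 80.0%. The classes next to 1000 bp, at 67.3% (interval 63.8 to 70.7) and 78.3% (interval 70.4 to 84.8), overlapped slightly in their intervals. The share with a broad peak within 20 kb was 11.1%, 12.3%, 15.5%, 23.2% and 24.3%. The share in centres stayed between 56.9% and 62.9% in the 5 classes. ChIP over control had a median ratio of 3.80 in the narrowest class, 4.25 in both of the next, then 4.39 and 4.48. Peaks with fewer reads are listed only at higher ratios, so these medians are not like for like.

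**Figure D5:**
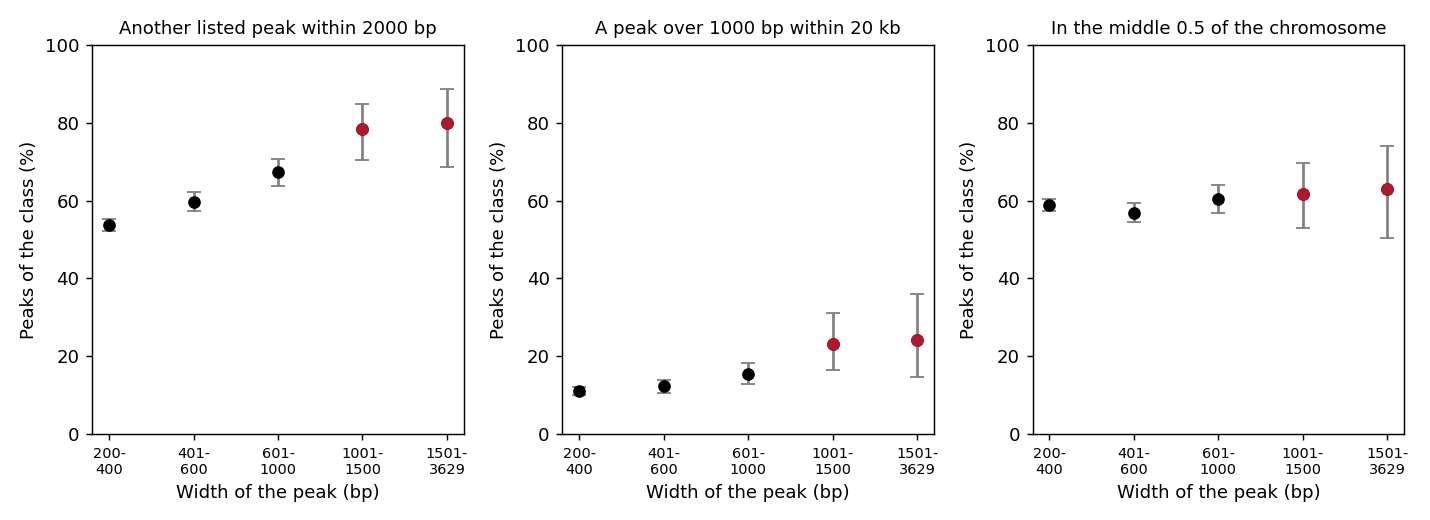
The horizontal axes give 5 classes of peak width in bp, and the vertical axes the percent of peaks in the class with another listed peak within 2000 bp (left), with a peak over 1000 bp within 20 kb (middle) and in the middle 0.5 of the chromosome (right), with exact 95% intervals. The left share rises from 53.7% to 80.0% and the middle one from 11.1% to 24.3%, while the right one stays between 56.9% and 62.9%; peaks over 1000 bp are in red.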

How the data were processed

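The authors deposited 1 combined list of peaks for the 2 anti-GFP ChIP and 2 input libraries, called with PeakSeq on genome build WormBase WS180, per the file headers. Each peak's deposited value is a q-value, which corrects the p-value of ChIP against scaled control reads for all regions tested. For the aligner, the PeakSeq version, read filters and the joining of replicates, the methods were not given in the sources used here. The depth of each library is unknown.

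Coordinates were read as given, counted from 1. A peak's midpoint set its position, and the end of the last peak stood for the chromosome's length. Gaps are the bases between the edges of neighbouring peaks. Reads were back-calculated. Each q-value times its rank over the number of tested regions (15494) equalled, to within 1e-10 on the natural log scale, a one-sided binomial tail of whole reads at probability 0.5. This held with 1 pair of counts for 11441 peaks, and 7 matched several pairs. The number 15494 was the one that matched all 2290 weak peaks used to find it. The tail was taken to include the observed ChIP count. The counts rest on this reading of the q-values, and control reads are after the caller's scaling. Distances, groups and the back-calculation were tested on simulated data.

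Exact (Clopper-Pearson) 95% intervals cover counting error only. No test was made, since the list holds no values per library. The peaks named were the 10 widest, the widest per chromosome, the 5 highest and 5 lowest ratios, members of groups of 3 or more, the 2 closest pairs, the 5 most isolated and the 3 on each side of 1000 bp. The members and lists were chosen with earlier results of these data known. Alternatives were other width limits, the better 50% by q, other comparison peaks, centres and gaps, and each chromosome left out. Gene names and sequences are not reported, since the gene table at hand describes another build. Python 3.11.15, numpy 2.4.6, pandas 2.3.3, scipy 1.17.1 and matplotlib 3.10.9 were used.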

Additional observations from a re-analysis of the deposited data

How the results depend on the processing

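Of 89 recomputed values, 69 stayed within the counting interval or 1.5 times the reported value and 20 moved. Among the differences between broad and medium peaks, none changed sign, and counts and shares have no direction. Some values could not move. Leaving out the last peak of I cannot alter the shares of other chromosomes, and all 208 broad peaks lie in the better 50% by q. The order of the chromosomes was not scored. With a limit of 800 bp there were 422 broad peaks, and their shares among peaks of at least 200 bp were 6.18% on I, 4.92% on II, 5.26% on III, 7.36% on IV, 5.86% on V and 7.85% on X, and the intervals of II and X did not overlap. With 1500 bp there were 70, at 0.958% on I, 1.09% on II, 1.22% on III, 1.09% on IV, 0.992% on V and 0.924% on X, where X was lowest and no longer highest. In the better 50% by q the shares were 3.05% on I, 2.84% on II, 3.25% on III, 5.41% on IV, 4.16% on V and 5.46% on X. This setting removed only peaks that were not broad, so no share could fall. The difference of 22.2 points in neighbours within 2000 bp was 13.1 against peaks of 500 to 1000 bp, 13.0 between midpoints, 29.5 within 1000 bp and 11.9 within 5000 bp, and it ran from 19.2 to 25.2 without 1 chromosome. The difference of 11.7 points in broad peaks within 20 kb was 6.63 with a limit of 1500 bp and ran from 8.53 to 15.5 without 1 chromosome. The difference of 3.52 points in centres ran from 1.17 to 5.81 without 1 chromosome, and was 6.90 against all peaks up to 1000 bp (interval -0.066 to 13.5) and 6.46 with the narrowest centre tried. The causes were not tested.

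Leaving out the 4 broad peaks and other peaks of at least 200 bp with over 100 control reads per kb gave 23.8 points for neighbours, 12.3 for broad peaks within 20 kb and 4.75 for centres. That setting and the split by centres and arms were chosen after seeing the data. If the tail leaves out the observed ChIP count, the median ratio is 4.31 in place of 4.44. No paired analysis was possible because values are pooled over the libraries, which also meant that no replicate could be left out. Tested regions above the authors' limit on q are not listed, and the alternatives could not bring any back.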

Other observations

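Listed peaks were joined into runs by gaps of at most 2000 bp. The 208 broad peaks fell into 190 runs with a median of 3 peaks, and 44 of these runs were single peaks. The whole list formed 7307 runs with a median of 1 peak, and 5026 of them were single peaks. A longer run has more peaks that can be broad, so these medians are not like for like. A run of 5 or more peaks held 65 broad peaks, or 31.3%, against 11.9% of the medium peaks. After the run of 24 peaks on II, the longest with a broad peak were 18 peaks on II from 10541902 to 10558992, 15 on X from 12167620 to 12184832, and 14 on II from 4569904 to 4585828. They were picked by their number of peaks after the values were seen.

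Chromosomes were divided into 97 full bins of 1 Mb and 3 shorter last bins of at least 0.5 Mb. Shorter ends of I, II and IV were left out with 3 broad peaks. Over these 100 bins, with 205 broad peaks, the number per bin had a mean of 2.05 and a variance of 2.82. Bins without any numbered 19, of which 5 lay on V, 2 on X and 3 on each other chromosome. The highest number was 7, on I from 7000001 to 8000000 and on II from 6000001 to 7000000. Medium peaks numbered 10 to 109 per bin, with a median of 67. Across the bins, which share libraries and neighbours, the number of broad peaks followed that of medium peaks weakly (Spearman's rho 0.17, Pearson's r 0.20).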
